A study of Mus musculus with 2 samples.

Results

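The genes described here encode the core of the spliceosome, the machine that removes introns from pre-mRNA, in wild-type mouse embryonic stem cells. Members were the protein-coding transcripts in GENCODE M21 whose gene symbol names a core spliceosome protein. These were Snrp symbols with a letter from a to g, and Snrnp, Sf3a, Sf3b, Prpf and Lsm symbols with a number. U2af1, U2af2, Sf1, Cdc5l, Eftud2, Aqr, Ddx23, Dhx15 and Xab2 were also taken, while Snrpn was not. The members came to 60 genes with 122 transcripts, of 21587 protein-coding genes with 49490 transcripts that have an exon value. The cells were of the XY line DTCM23/49, grown without feeder cells on gelatin in serum and leukemia inhibitory factor, and both libraries carry the genotype label WT. They received 200 µM of 4-thiouridine (4sU), a uridine analogue that is built into new RNA, for 10 min. RNA that carried 4sU was biotinylated and pulled down as labeled RNA, and the RNA left in the supernatant was kept as unlabeled RNA. Each pool was measured in 1 library, both of biological replicate 1, although the labels state that the labeling was done in duplicate. One label calls the second library preexisting RNA and another calls it total RNA. Here it stands for the unlabeled pool. The labels also say that miRNA depleted cells were seeded, and only WT libraries were analysed here.

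The spliceosome is built from small nuclear ribonucleoproteins (snRNPs), each a small nuclear RNA with proteins. The U1 and U2 snRNPs recognise the ends and the branch site of an intron, the U4/U6.U5 tri-snRNP then joins, and helicases and the Prp19 complex remodel the assembly so that it can catalyse splicing. Embryonic stem cells divide quickly and transcribe broadly, and they express the core spliceosome genes at high levels.

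For every transcript 1 exon value and, where it has introns, 1 intron value were deposited per library, in a length-scaled unit called TPM, although a column adds up to 10 times what TPM would give. Read depth is unknown, so no counting error could be given for any value. With 1 library per pool there is no replicate check either, and no test was made. Each gene was read from 1 main transcript, the coding one with the highest mean exon value. The libraries were scaled separately, and the median log2 ratio of labeled to unlabeled exon value over 13697 protein-coding genes was -0.31 as deposited. Ratios are therefore given as log2 differences from that median, called the relative log2 ratio, in which 0 is the middle gene.

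All 8 embryonic stem cell markers were present in both libraries, with Nanog at 1099 in labeled and 2416 in unlabeled RNA. The 6 fibroblast or feeder markers summed to 7.72 in labeled and 17.4 in unlabeled RNA, with Col3a1 and Pdgfrb at 0 in both. The 5 primitive endoderm markers summed to 7.72 and 16.3, with Gata6 and Sox17 at 0, and the 4 mesoderm markers to 5.97 in each library. The 5 neural markers summed to 219.9 and 254.3, most of it from Tubb3 and Pax6. Introns held 15.4% of the labeled and 6.26% of the unlabeled column.

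Relative to the median of all genes, the Sm ring genes and most LSm genes were weighted to labeled RNA. Most Prp19 complex genes and U2 snRNP genes were weighted to unlabeled RNA. With a mean exon value of 100 or more, however, the median relative log2 ratio was -0.43 over 2894 genes and 0.05 over 39 members. Beside that -0.43, the U2 snRNP median was -0.37 and the Prp19 complex, catalysis and disassembly median -0.82, over members of any level. The median exon value of the 60 genes was 141.9 in labeled RNA (range 8.54 to 847.5) and 130.1 in unlabeled RNA (range 6.74 to 1123). Their summed exon value was 0.150% of the labeled and 0.205% of the unlabeled column. The median relative log2 ratio was 0.20, while it was -0.10 as deposited, and 33 genes lay above the median of all genes and 27 below it. At least 2-fold above it lay 20 of the 60 genes, beside 22.1% of all genes, and at least 2-fold below it lay 11, beside 15.4%. With a mean exon value of 100 or more, 13 of 39 members lay at least 2-fold above it, beside 339 of 2894 genes. At least 2-fold below it lay 8 of these 39 members, beside 681 of the 2894 genes. Over all 60 members, the counts above and below became 22 and 6 with a minimum mean exon value of 10, and 20 and 15 with leakage subtracted. Relative to genes of the same length bin, 21 members in all lay at least 2-fold away. The share of all genes past 2-fold was not computed for these settings, so these counts have no background beside them. The members thus lay on both sides of the middle gene, and their medians differed by role.

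**Figure D1:**
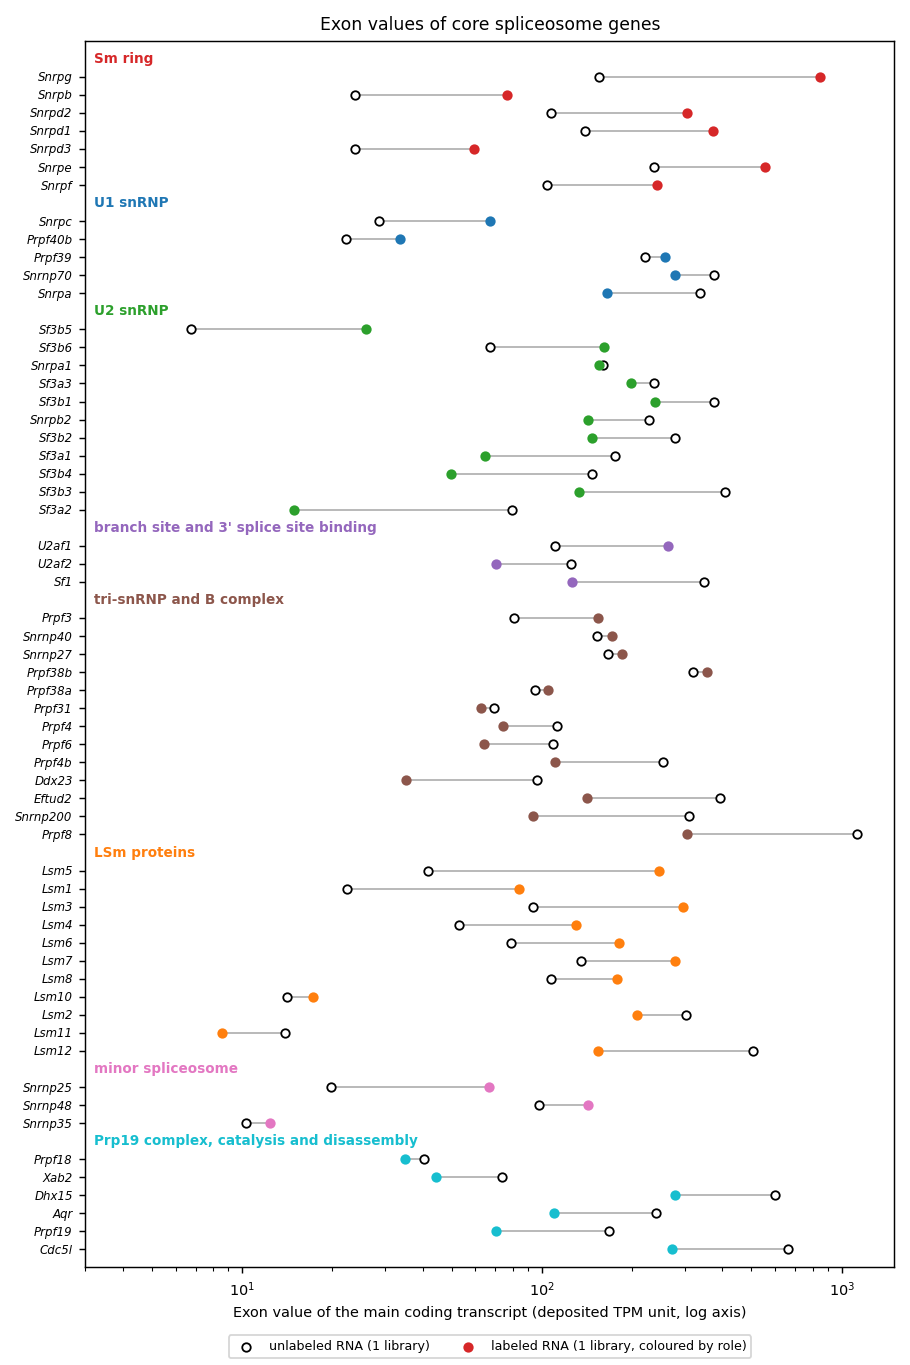
Exon values of the main coding transcript of 59 of the 60 genes (log axis, deposited TPM unit) in the 1 unlabeled library (open points) and the 1 labeled library (filled points, coloured by role), with genes ordered within each role by their ratio. All 7 Sm ring genes have the filled point to the right, while the Prp19 complex, catalysis and disassembly genes have it to the left.

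The Sm ring genes encode the 7 proteins that close a ring on the U-rich site of the spliceosomal RNAs. All 7 lay at least 2-fold above the median of all genes, beside 22.1% of all genes, and their median relative log2 ratio was 1.72. Snrpg, the smallest ring protein, had the highest ratio of the group, with 847.5 in labeled and 154.5 in unlabeled RNA, a 5.48-fold difference as deposited and a relative log2 ratio of 2.76. Snrpf had the lowest, with 241.2 in labeled and 103.7 in unlabeled RNA and a relative log2 ratio of 1.52. Between them lay Snrpb, which encodes the ring proteins B and B', at 76.3 and 23.7. Snrpd2 stood at 305.9 and 107.3, Snrpd1 at 371.6 and 139.2, Snrpd3 at 59.1 and 23.8 and Snrpe at 555.7 and 235.9, each in labeled and then unlabeled RNA. The labeled value was the higher one in each of these 7 genes, and they differed among themselves more in level than in ratio. All 7 stayed at least 2-fold above the median in 8 other settings. Relative to genes of like length Snrpe and Snrpf fell just short, with 0.99 and 0.97. Snrpn, a Snrp gene that the member rule leaves out, stood at 367.2 in labeled and 460.3 in unlabeled RNA. Its relative log2 ratio was -0.02, so the weighting to labeled RNA covers the 7 members only.

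Values of the ring genes rest on reads that cannot all be told from those of processed pseudogenes, intronless copies of a spliced mRNA elsewhere in the genome. The coding sequence of Snrpg (chr6:86371304-86379328, plus strand, GRCm38) has a copy, Gm8186 (chr17:26098991-26099221, minus strand), that is 100% identical over all 228 coding bases. Its first 60 coding bases are printed to show what a read from either would hold, in lower case throughout since no base differs.

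Snrpg and Gm8186: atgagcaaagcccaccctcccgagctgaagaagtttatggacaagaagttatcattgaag

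Snrpe (chr1:133603871-133610291, minus strand) has a copy, Gm43124 (chr6:126990596-126990873, plus strand), that is 94.9% identical, and the 60 coding bases from position 2 to 61 hold the most differences. Capitals mark the bases that differ, with positions counted from 1 at the A of the start codon. The substitutions are C12T, A24G, G36C, C57A and C58T, and 1 base of the gene is absent from the copy.

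Snrpe: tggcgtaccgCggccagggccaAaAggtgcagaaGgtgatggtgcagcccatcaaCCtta
Gm43124: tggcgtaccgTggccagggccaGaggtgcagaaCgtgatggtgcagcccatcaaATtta

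The copies of Snrpg held 2678 in labeled and 571.8 in unlabeled RNA, more than the gene itself in both libraries, or 76.0% and 78.7% of the sum. The single listed copy of Snrpd1, Gm14277, held 839.9 and 274.2. For Snrpf the copy Gm13092 held 516.0 and 231.5. Snrpb and Snrpd3 had no such copy, and their relative log2 ratios of 1.99 and 1.62 lay within the range of the ring genes that have one. The part of the copies in the ratios of the ring genes was not tested. Snrpf also shares 65.9% of its exon bases with Ccdc38 on the opposite strand, and how strand was treated in the counting is not given in the sources used here.

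The LSm genes encode relatives of the Sm proteins that form rings on U6 RNA (Lsm2 to Lsm8), on mRNA marked for decay (Lsm1 to Lsm7) and, with Sm proteins, on the U7 RNA of histone mRNA processing (Lsm10 and Lsm11). Their median relative log2 ratio was 1.36, and 8 of 11 lay above the median of all genes, 7 of them at least 2-fold. Of all genes, 22.1% lay at least 2-fold above it. The median spliced length of the LSm genes was 840 bases. Of the 2506 genes under 1000 bases, 1631 lay above the median of all genes, 938 of them at least 2-fold, so the 8 of 11 is not far from that share. Lsm5 had the highest ratio of all 60 genes, with 246.1 in labeled and 41.7 in unlabeled RNA and a relative log2 ratio of 2.87. Lsm1, which defines the cytoplasmic decay ring, stood at 83.6 and 22.4, with a relative log2 ratio of 2.20. Lsm8, which defines the nuclear ring, stood at 177.8 and 107.4, with 1.03. Of the genes shared by both rings, Lsm3 stood at 296.7 and 93.6 and Lsm2 at 207.7 and 301.4, and Lsm2 alone lay below the median of all genes. Lsm2 had a relative log2 ratio of -0.23, which turned positive with the longest coding sequence in place of the main transcript. Lsm4 had a relative log2 ratio of 1.61 and Lsm7 of 1.36, and Lsm6 stood at 180.2 and 79.0. The U7 proteins were low in level, with Lsm10 at 17.2 in labeled and 14.1 in unlabeled RNA and Lsm11 at 8.54 and 13.9. Lsm12, an LSm domain protein outside these rings, had the lowest ratio of the group, with 153.3 in labeled and 505.4 in unlabeled RNA and a relative log2 ratio of -1.42.

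The U1 snRNP binds the 5′ splice site, and its genes had a median relative log2 ratio of 0.20 that was -0.11 as deposited. Snrpc, a small zinc finger protein at the U1 and 5′ splice site duplex, had the highest ratio, with 67.0 in labeled and 28.6 in unlabeled RNA and a relative log2 ratio of 1.53. Prpf40b, a U1-associated protein, stood at 33.6 and 22.3, above the median of all genes, read from a short coding isoform of 780 bases. Snrnp70, which binds the first stem of U1 RNA, stood at 278.7 and 376.6, close to the median of all genes. Its relative log2 ratio of -0.13 turned positive with a minimum mean exon value of 10. Snrpa, which binds the second stem, stood at 165.4 and 336.4, and Prpf39, another U1-associated protein, at 258.1 and 221.2.

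The U2 snRNP binds the branch site through the SF3a and SF3b complexes, and its 11 genes ranged in relative log2 ratio from -2.11 to 2.24. The small SF3b subunits Sf3b5 and Sf3b6 had the highest ratios, with Sf3b5 at 25.8 in labeled and 6.74 in unlabeled RNA and Sf3b6, which lies near the branch site adenosine, at 161.3 and 67.3. Their relative log2 ratios were 2.24 and 1.57. The large SF3b scaffold proteins were weighted to unlabeled RNA, although Sf3b1 was at 0.12 relative to genes of like length. Sf3b1 stood at 239.3 in labeled and 374.0 in unlabeled RNA, Sf3b2 at 146.5 and 277.3, and Sf3b3 at 132.7 and 408.1 with a relative log2 ratio of -1.32. Sf3b4, an RNA-binding subunit, stood at 49.6 and 147.4. Of the SF3a complex, Sf3a2 had the lowest ratio of all 60 genes, with 14.9 in labeled and 79.2 in unlabeled RNA and a relative log2 ratio of -2.11. Sf3a1 stood at 64.8 and 175.4 and Sf3a3 at 198.6 and 236.4. Sf3a3 had a relative log2 ratio of 0.05, which turned negative with no minimum. The U2-specific proteins that bind its RNA were nearer the middle, with Snrpa1 at 154.6 and 160.5 and Snrpb2 at 142.8 and 227.8.

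Before the U2 snRNP arrives, Sf1 holds the branch site, U2af2 the polypyrimidine tract and U2af1 the AG at the 3′ splice site. The 3 genes differed. U2af1 stood at 263.4 in labeled and 110.7 in unlabeled RNA, with a relative log2 ratio of 1.56. Its partner U2af2 stood at 70.5 and 125.5, with -0.53. Sf1 stood at 126.5 and 346.2, with -1.15. The partners of the U2AF dimer thus lay on opposite sides of the median of all genes.

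The tri-snRNP and B complex genes had a median relative log2 ratio of -0.30, and 6 of 13 lay above the median of all genes. Prpf3, a U4/U6 protein, had the highest ratio, with 153.7 in labeled and 80.7 in unlabeled RNA and a relative log2 ratio of 1.24. That value came from an isoform of 575 bases, while the isoform of 2933 bases, Prpf3-201, had 80.0 and 82.9 and a relative log2 ratio of 0.25. The 4 genes at least 2-fold below the median encode a scaffold, 2 helicases and a GTPase. Prpf8, the scaffold around the catalytic RNA, stood at 304.0 and 1123, the highest unlabeled value of all 60 genes, with a relative log2 ratio of -1.58. Snrnp200, the helicase that unwinds U4 from U6 RNA, stood at 93.5 and 309.5, with -1.42, or -0.96 relative to genes of like length. Eftud2, the GTPase of the U5 snRNP, stood at 141.1 and 392.2, and Ddx23, the helicase that removes U1 from the 5′ splice site, at 35.3 and 96.5. With gene sums 3 of the 13 genes lay at least 2-fold below the median, Eftud2 having a relative log2 ratio of -0.77 by its sum, and with a minimum mean exon value of 10 it was 2. The remaining tri-snRNP and B complex genes ranged in relative log2 ratio from 0.47 for Snrnp40, a U5 protein, to -0.89 for Prpf4b, a kinase that acts on tri-snRNP proteins. Snrnp27, Prpf38a and Prpf38b lay just under Snrnp40, with 0.46, 0.45 and 0.46. The U4/U6 proteins Prpf31 and Prpf4 had 0.16 and -0.30, and Prpf6, which bridges the U4/U6 and U5 parts, had -0.45.

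The minor spliceosome removes a rare class of introns, and its 3 member genes lay above the median of all genes. Snrnp25 stood at 66.6 in labeled and 19.8 in unlabeled RNA, with a relative log2 ratio of 2.05. Snrnp48 stood at 142.7 and 98.0, with 0.85, and Snrnp35, a low gene, at 12.4 and 10.3, with 0.57. The genes of the Prp19 complex, catalysis and disassembly had the lowest median of the roles, -0.82, and only Prpf18, a factor of the second catalytic step, lay above the median of all genes, at 35.0 and 40.6 with 0.09. Cdc5l, a Prp19 complex subunit, had the lowest ratio, with 272.6 in labeled and 660.6 in unlabeled RNA and a relative log2 ratio of -0.97. The disassembly helicase Dhx15 stood at 278.5 and 599.0, the intron-binding helicase Aqr at 109.4 and 240.5, the ubiquitin ligase Prpf19 at 70.2 and 167.0, and Xab2 at 44.3 and 73.8. None of these 6 genes passed 2-fold in either direction, though 2 did below the median with no minimum or with gene sums, and 3 with leakage subtracted or copies added.

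The relative log2 ratio was higher in members with shorter mRNAs, and most of the ring genes are short. Over the 60 genes, Spearman's rho between the relative log2 ratio and spliced length was -0.55, and with the number of exons it was -0.72. Over all 13697 genes the values were -0.30 and -0.24. These are descriptions over genes that share both libraries, and they carry no p-value. Below 1000 bases the median relative log2 ratio was 1.30 for 20 members and 0.56 for all 2506 genes. At 4000 bases or more it was -0.86 for 10 members and -0.46 for 2978 genes. Taken relative to genes of the same length bin, all 7 Sm ring genes and 9 of 11 LSm genes still lay above the median, with group medians of 1.42 and 0.80. On that scale the median of all members was 0.07, and the tri-snRNP and B complex genes moved to -0.10 while the U2 snRNP genes were at -0.49. Sf3a2, at 781 bases, and Sf3b5, at 3841 bases, went against the trend, with -2.66 and 2.37 relative to their length bins. The length of Sf3a2 is that of its main isoform, and its -2.66 rests on that choice. Its isoform Sf3a2-203, of 2213 bases, had a relative log2 ratio of -1.79, in a length bin with a median of -0.13. Uridine content, on which labeling depends, had a rho of 0.24 with the relative log2 ratio as a percent of bases and of -0.49 as a count, beside -0.12 and -0.31 over all genes. The part of length, exon number and uridine count in the difference between roles was not tested.

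**Figure D2:**
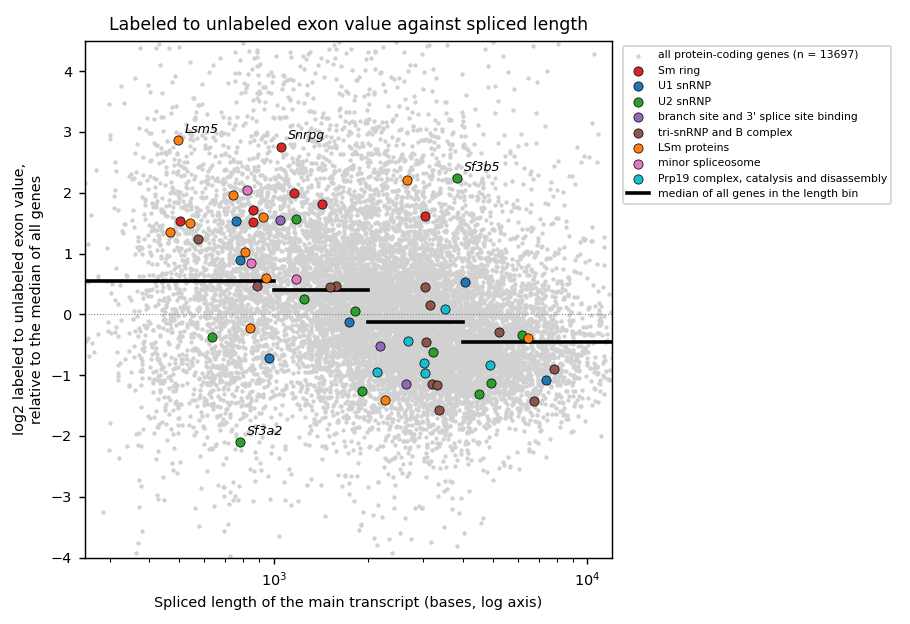
Relative log2 ratio of labeled to unlabeled exon value against spliced length of the main transcript (log axis) for all 13697 protein-coding genes (grey) and the 60 members, coloured by role, with black lines at the median of all genes in each length bin. The 7 Sm ring points lie between 1.52 and 2.76, above the lines, and 192 grey points fall outside the axes.

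The intron to exon ratio, taken within a library, shows how much unspliced RNA remains. For the 58 members with all 4 values above 0, its median was 0.226 in labeled RNA and 0.0432 in unlabeled RNA, beside 0.471 and 0.0918 over 12420 genes. The median of the mean exon value was 159.7 for members and 24.8 for all genes, and the ratios of members were nearer to those of other highly expressed genes. With a mean exon value of 100 or more, the medians were 0.160 and 0.0358 for 39 members and 0.202 and 0.0269 for 2722 genes. By role, the labeled medians ranged from 0.134 for the LSm genes to 0.388 for the genes that bind the branch site and 3′ splice site. The unlabeled medians ranged from 0.0185 for the Prp19 complex, catalysis and disassembly genes to 0.258 for the minor spliceosome. Sf3b5 has a single exon and no intron value, and Lsm10 has its unlabeled intron listed at 0.

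Within roles the labeled ratio ranged widely. In the Sm ring it ran from 0.0294 in Snrpd2 to 0.743 in Snrpd3, the ring gene with the longest main transcript. In the U2 snRNP it ran from 0.103 in Sf3a3 to 0.850 in Sf3a2, so that Sf3a2 combined the lowest exon ratio with the highest labeled intron to exon ratio of its group. In the tri-snRNP and B complex it ran from 0.0492 in Snrnp27 to 0.446 in Prpf31, and in the U1 snRNP from 0.0983 in Snrpa to 0.347 in Snrpc. Among the LSm genes it ran from 0.00817 in Lsm7 to 1.85 in Lsm1. Sf1 had the highest of the branch site and 3′ splice site group, 0.662, and U2af1 the lowest, 0.235. Among the Prp19 complex, catalysis and disassembly genes the ends were Prpf19 at 0.0941 and Prpf18 at 0.412.

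In a model with constant synthesis, processing and degradation, known as the Zeisel model, the labeled ratio lies under 1 and above the unlabeled ratio. This failed for 7 of 58 members, or 12.1% (95% Wilson interval 5.97 to 22.9%, which covers the number of genes only), beside 28.4% of all genes. With a mean exon value of 100 or more, it failed for 2 of 39 members, or 5.13%, beside 3.67% of 2722 genes. The labeled ratio was 1 or more in Lsm1, at 1.85, Lsm11, at 1.33, and Snrnp35, at 1.90, beside 22.4% of all genes. Lsm1 also had an unlabeled ratio of 2.20, the highest of the members. The labeled ratio was under 1 but not above the unlabeled one in Lsm5 (0.126 and 0.226), Prpf40b (0.116 and 0.437), U2af1 (0.235 and 0.511) and Snrnp25 (0.0575 and 0.111), beside 6.03% of all genes. In the main transcripts of these 4 genes introns were a larger part of the signal in unlabeled than in labeled RNA. When values were summed over coding transcripts, Prpf40b had 0.397 in labeled and 0.347 in unlabeled RNA, the reverse order. Sf3a2 then took the place of Prpf40b among the 7.

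**Figure D3:**
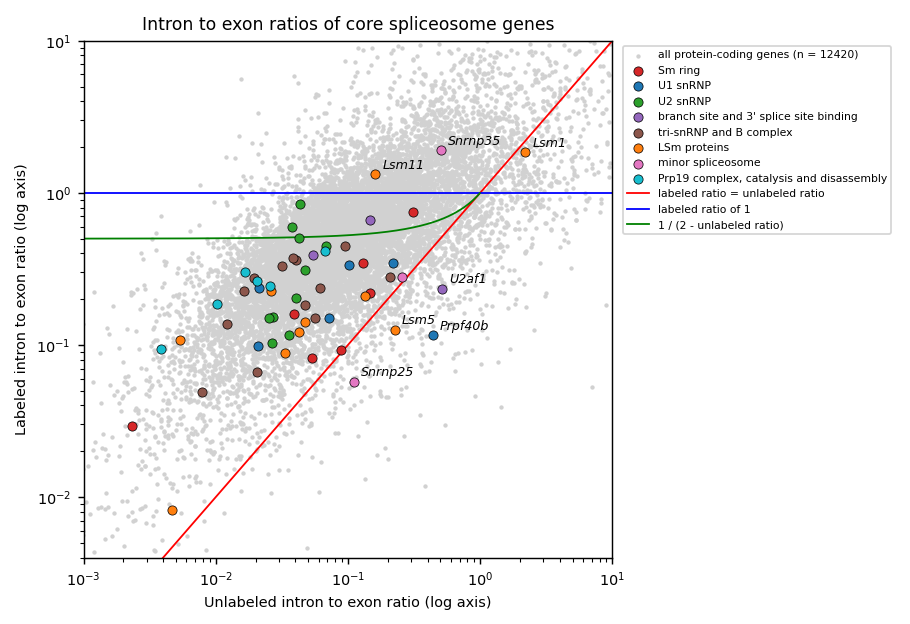
Labeled against unlabeled intron to exon ratio (both log axes) for 12420 protein-coding genes (grey) and 58 members, coloured by role. The 3 named points above the blue line have a labeled ratio of 1 or more, the 4 named points below both the blue and the red line have a labeled ratio not above the unlabeled one, and 187 grey points fall outside the axes.

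For the 51 members inside the model, degradation rates could be solved exactly in 6. Otherwise they were those at the least distance to the model with degradation tied to processing by an equation of the study. This is not the closest fit, which leaves both variables free. With exact solutions, Sf3b4 had a half-life of 3.55 min, Snrpd3 of 11.1 min, Sf1 of 16.6 min, Sf3b3 of 18.5 min, Sf3a1 of 45.9 min and Sf3a2 of 325.1 min. Sf3b4 had a further solution at 2.17 min. Its labeled and unlabeled intron to exon ratios, 0.446 and 0.0685, became 0.180 and 0.0253 with its pseudogene copy added. An intron of Sf3b4 also holds a small nucleolar RNA, Gm22027, listed at 85.5 in labeled and 0 in unlabeled RNA. By gene sums Sf3a2 had a labeled ratio of 1.47 and lay outside the model. With the second library read as total RNA, Snrpd3 had 22.04 min, Sf1 42.7 min, Sf3b4 47.2 min, Sf3b3 96.8 min, Sf3a1 149.8 min and Sf3a2 454.3 min, so both the values and the order of these genes changed. The median over the 51 genes was 23.5 min, beside 19.6 min over all genes. An exact solution was lacking in 88.2% of these members and 62.9% of all genes inside the model, so the medians mix estimates differently. With a mean exon value of 100 or more, they were 29.35 min for 37 members and 24.63 min for 2622 genes. The median of the 51 members was 3.78 min with both variables free in the distance, and 35.5 min with the second library read as total RNA. These alternatives were not computed for all genes. The half-lives of single members without an exact solution are therefore not given, and no order of roles was read from them.

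Pseudogene copies went beyond the Sm ring. At 90% identity or more over 50% or more of the coding sequence, 20 of the 60 genes had a copy and 50 copies were found, of which 31 are in the table. The copies of 16 genes had a value above 0, and in 8 of these the copies summed to more than the gene in labeled RNA. Of the 16 genes, 5 belong to the Sm ring and 5 to the LSm proteins. Lsm7 has a copy, Gm10146, identical over all 309 coding bases, and its copies held 63.7% of the labeled and 66.1% of the unlabeled sum. In each of the 16 genes the summed copies lay on the same side of the median of all genes as the gene, and since they share reads this is no independent measurement. Adding the copies moved the relative log2 ratio most in Lsm1, from 2.20 to 1.79. Copies have no introns, so adding them lowers the intron to exon ratio, for Snrpg from 0.0921 to 0.0221 in labeled RNA. A longer case is Sf3b4 (chr3:96172332-96177564, plus strand), whose copy Gm7935 (chr15:74080234-74081511, minus strand) is 99.3% identical and held 73.1 in labeled and 251.5 in unlabeled RNA, more than the gene. The stretch with the most differences is printed, coding positions 1038 to 1097, with differing bases in capitals: the substitution G1097A, and 3 further bases in the copy.

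Sf3b4: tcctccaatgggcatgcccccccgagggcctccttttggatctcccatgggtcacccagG
Gm7935: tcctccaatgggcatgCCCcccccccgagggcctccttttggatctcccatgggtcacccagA

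Cdc5l differs from the others in having coding copies. On chromosome 10, 8 coding transcripts match its coding sequence at 97.6 to 97.7% identity, of which 4 are in the table. These 4 summed to 1057 in labeled and 3133 in unlabeled RNA, beside 272.6 and 660.6 for Cdc5l itself, and how reads were split among them cannot be told from the table.

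**Figure D4:**
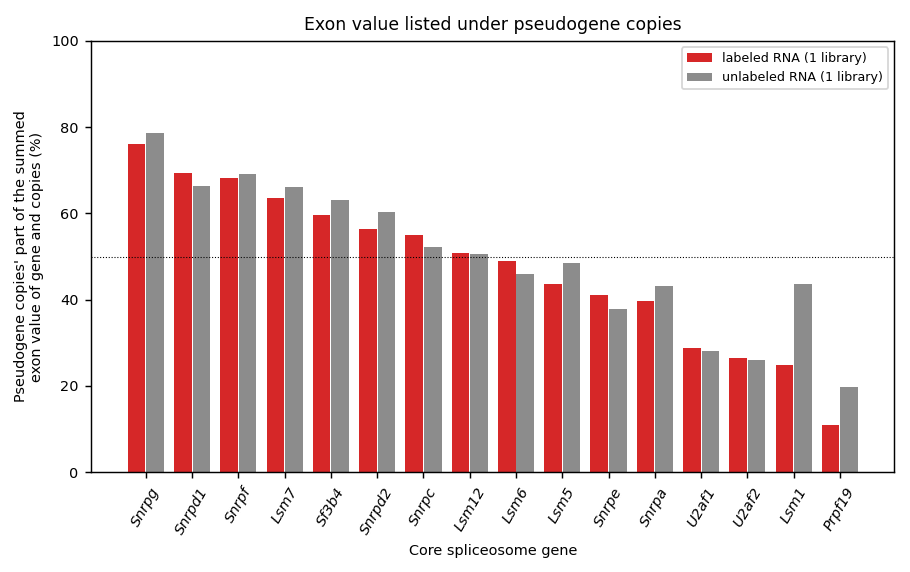
Percent of the summed exon value of gene and pseudogene copies that is listed under the copies, in the labeled (red) and the unlabeled (grey) library, for the 16 members with a copy above 0. The bars start at 0, the dotted line marks equal parts, and the part is highest for Snrpg, at 76.0% and 78.7%.

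Most isoforms of a member had like ratios, but isoforms of a gene share exons and reads, so they are no independent measurements. In 27 genes a further coding isoform held at least 20% of the gene's exon value in either library, and 4 of these 39 isoforms differed at least 2-fold in ratio from the main one. Eftud2-211, an isoform of 397 bases, had 232.7 in labeled and 248.4 in unlabeled RNA, and a relative log2 ratio of 0.21 where the main isoform had -1.17. Xab2-203, of 854 bases, had 18.0 and 14.6, and 0.61 where the main isoform had -0.43. Both are much shorter than the main isoform of their gene and lay on its labeled side. Snrnp35-203, also shorter than its main isoform at 449 against 1181 bases, had 3.07 and 7.36, with -0.96. Prpf3-207, of 2732 bases beside 575 for its main isoform, had 56.8 and 62.4, with 0.17. Snrnp35-203 and Prpf3-207 lay on the unlabeled side of their main isoforms, so the shorter isoforms went both ways. Prpf8 was read from an isoform of 3371 bases, and its isoform of 7442 bases, Prpf8-201, gave a relative log2 ratio of -1.55 with 274.6 and 990.6.

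Introns of 3 members hold annotated small nucleolar RNAs on the same strand, Snord111 and Gm22193 in Sf3b3, Gm22027 in Sf3b4 and Gm25970 in Prpf39. Their labeled intron to exon ratios were 0.506, 0.446 and 0.150, and those of the 55 other members had a median of 0.226. Sf3b3 and Sf3b4 were thus above that median and Prpf39 below it. The 55 include Snrnp70, at 0.336. Its intron overlaps a small nucleolar RNA on the opposite strand, Gm22478, at 490.1 in labeled and 219 in unlabeled RNA. Exons of 12 members overlap exons of another annotated gene, 10 of them on the opposite strand, and Prpf39 shares 599 exon bases with Fkbp3, which stood at 1658 in labeled and 1209 in unlabeled RNA.

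The other spliceosome proteins, a list of 67 genes that are not members, had a median relative log2 ratio of -0.02, with 31 above the median of all genes. At least 2-fold above it lay 8 of them and at least 2-fold below it 5, where 22.1% and 15.4% of all genes lay. Of the 2894 genes with a mean exon value of 100 or more, 339 lay at least 2-fold above it and 681 at least 2-fold below. The ends of the list were the cyclophilins Ppie and Ppih, at 2.38 and 2.07, and Txnl4b and Wbp11, at -1.93 and -2.25. The 20 genes of a list of snRNP assembly and maturation factors had a median of -0.15, with 8 above the median of all genes, 4 at least 2-fold above and 3 at least 2-fold below it. The small SMN complex subunits Gemin7 and Gemin6 were highest, at 1.52 and 1.49, and the helicase Ddx20 and the methylosome subunit Wdr77 lowest, at -1.07 and -1.63. Outside the model lay 5 of the 67 and 1 of the 20 genes, beside 28.4% of all genes and 3.67% of those with a mean exon value of 100 or more.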

How the data were processed

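The authors separated labeled and unlabeled RNA after 4sU labeling, removed reads of ribosomal RNA, aligned the rest to exonic and intronic sequences with STAR (version 2.5.0 per the submitters' processing notes) and quantified them with RSEM, on GRCm38. The deposited signal is a relative abundance per transcript, called TPM, that sums to 10 times a TPM column. Read counts and depth are unknown. The design assumed TPM, and thresholds were applied to the values as deposited.

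Members were matched by gene symbol alone, and this rule and the gene lists were chosen with earlier results of these data known. Of 121429 transcripts, 110366 were found in GENCODE M21. A gene's main transcript was the coding one with the highest mean exon value, above a minimum of 1. Roles, the pathway list and the assembly list were written by hand. In each role the genes with the highest and lowest exon ratio and labeled intron to exon ratio were named, with all members outside the model, isoforms that differed 2-fold and the 2 highest and 2 lowest of each list. Further members were named to account for the rest, except that 1 gene is not reported here by name and stays in the counts and medians. Rates followed the study's equations on 4000 grid points, tested on data simulated from the model itself. Without noise such data have an exact solution, while 88.2% of members inside the model had none. The test therefore says little about the rates of those members. Copies were found with BLAST+ 2.17.0 against GENCODE M21 transcripts, from which the printed sequences come. Alternatives were another minimum, no minimum, a pseudocount, gene sums, all transcripts, leakage, other choices among solutions and a total RNA reading. Scripts ran in Python 3.11.15 with pandas 2.3.3 and numpy 2.4.6, and figures were drawn with matplotlib 3.10.9.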

Additional observations from a re-analysis of the deposited data

How the results depend on the processing

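No paired analysis was possible because each pool has 1 library and no result comes from a test. The median half-life depended on the method, at 3.78 min with both variables free in the distance and 35.5 min with the second library read as total RNA, instead of 23.5 min. The count of 31 genes at least 2-fold from the median of all genes became 59 of 121 when every member transcript was counted, since more features were counted, and 21 of 60 relative to genes of the same length bin. The share over all genes was not computed in either setting. The median relative log2 ratio ranged from 0.07 (relative to the length bin) to 0.38 (minimum mean exon value of 10). The share outside the model ranged from 11.9% (pseudocount of 0.1) to 18.1% (all transcripts). Subtracting leakage of 0.11 times the unlabeled value added Sf3a2, making 8 genes. The longest coding sequence, the length bin and the added copies were chosen after seeing the data. Depth, strand and replicate spread are unknown here.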
